A study of Mus musculus with 12 samples.

Results

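The 9 genes examined belong to the myeloid C-type lectin receptor family (9 of 24107 genes in the expression table of a mouse model of acute myeloid leukemia): Clec12a, Clec4a2, Clec4d, Clec4e, Clec4n, Clec7a, Clec5a, Clec4a1 and Clec4b2. They were chosen by symbol, all 9 were in the table, and all 9 passed the filter for testing (FPKM of at least 1 in at least 3 of 12 libraries). FPKM is fragments per kilobase of gene, scaled for sequencing depth, a level that can be compared between genes. The study measured RNA in 4 groups of 3 C57BL/6 libraries: megakaryocyte-erythroid progenitors (MEP) and whole bone marrow of wild-type mice, and, from leukemic recipient mice carrying Prdm16s cells, leukemic MEP and GFP+ bone marrow. Prdm16s is the short form of the transcription factor Prdm16, and neither the vector and promoter that drive it nor the age of the mice is stated in the labels. The GFP+ marrow cells were selected by fluorescence and the control marrow was not. In every leukemic group, Prdm16s, leukemia and life in a recipient come together and cannot be told apart. Whether the libraries came from separate mice is not stated, so p-values measure only the spread between these libraries.

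C-type lectin receptors are membrane proteins with a carbohydrate-recognition fold that myeloid cells use to sense fungi, mycobacteria and damaged cells. Activating members signal through immunoreceptor tyrosine-based motifs, either in their own tail or in the adaptors FcRγ (gene Fcer1g) and DAP12 (gene Tyrobp), to the kinase Syk and the CARD9 complex. Inhibitory members carry a motif that recruits the phosphatases encoded by Ptpn6 and Ptpn11. Neutrophils, monocytes, macrophages and dendritic cells express them in different combinations, and CLEC12A is well known as a surface antigen of human acute myeloid leukemia blasts.

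Libraries differed in ways that touch every result below. Prdm16 was between 6.35 and 15.3 FPKM in the 6 Prdm16s libraries and below 1 FPKM in the 6 controls. Recovered depth was 6718201 to 9710431 reads in 10 libraries, 571739 in leukemic MEP 3 and 1149788 in GFP+ marrow 2. Leukemic MEP 3 stood apart from its group: the erythroid factor Gata1 stood at 37.7 FPKM there and at 242 and 209.6 FPKM in the other 2 libraries. The granule enzyme Mpo stood at 7897 FPKM there and at 167 and 150.2 FPKM in the others. The female transcript Xist was at 39.2 to 57.1 FPKM in replicates 1 and 2 of both Prdm16s groups and below 0.1 FPKM in the other 8 libraries. The Y-linked transcript Ddx3y was at 10.3 to 27.6 FPKM in those 8 libraries and at 0 to 0.392 FPKM in replicates 1 and 2 of both Prdm16s groups. Because leukemic MEP 3 stood apart, many results below are also given with it left out. In the MEP comparison of that fit, every leukemic library is high in Xist and every control high in Ddx3y. Sex and leukemia then cannot be told apart in MEP. In libraries of many cells, fewer cells of a type and less RNA per cell cannot be told apart.

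All 9 genes lie on chromosome 6 (GRCm38.p6, the mm10 build). Of these, 6 members, Clec4a1, Clec4a2, Clec4b2, Clec4n, Clec4d and Clec4e, stand among 9 Clec4 genes at chr6:122921848-123289871, a span of 368 kb. Clec12a and Clec7a are the first and last of 6 genes at chr6:129349783-129472785, a span of 123 kb, and Clec5a stands alone at chr6:40574898-40585805. All 9 are annotated as protein-coding. Upstream sequence is shown for 3 members whose 250 bases before the RefSeq start hold no annotated exon and whose levels behaved differently. Clec7a rose in leukemic MEP, Clec4e had a negative estimate in GFP+ marrow, and Clec4d was among the steadiest. The Clec4a1 window also holds no annotated exon and is not shown. Capitals mark matches, on either strand, to the PU.1 core GAGGAA and the C/EBP core TTGCNNAA, the letters of the myeloid factors encoded by Spi1 and the Cebp genes. The windows are from RefSeq, run 5′ to 3′ on the gene's strand, and end at the base before the start.
Clec7a, chr6:129472786-129473035, minus strand: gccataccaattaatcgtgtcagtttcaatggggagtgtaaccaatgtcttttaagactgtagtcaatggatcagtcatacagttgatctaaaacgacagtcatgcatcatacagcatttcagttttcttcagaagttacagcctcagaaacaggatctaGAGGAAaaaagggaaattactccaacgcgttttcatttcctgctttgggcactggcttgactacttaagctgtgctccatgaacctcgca
Clec4e, chr6:123289872-123290121, minus strand: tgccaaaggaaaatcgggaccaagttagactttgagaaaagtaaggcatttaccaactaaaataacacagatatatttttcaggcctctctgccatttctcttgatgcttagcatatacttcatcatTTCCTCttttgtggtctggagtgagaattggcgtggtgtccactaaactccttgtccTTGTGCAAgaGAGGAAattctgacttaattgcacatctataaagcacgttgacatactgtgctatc
Clec4d, chr6:123261857-123262106, plus strand: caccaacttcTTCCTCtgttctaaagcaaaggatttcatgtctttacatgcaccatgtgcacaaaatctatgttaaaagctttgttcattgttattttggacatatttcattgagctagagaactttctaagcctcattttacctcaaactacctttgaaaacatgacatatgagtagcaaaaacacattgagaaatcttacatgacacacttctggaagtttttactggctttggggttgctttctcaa
The GAGGAA core begins 90 bases before the start in Clec7a, 123 and 56 bases before it in Clec4e, and 240 bases before it in Clec4d. Clec4e also holds the C/EBP core, 66 bases before its start and next to a PU.1 core. GAGGAA was found in 7 of the 8 members with a RefSeq window, Clec4a2 being the exception, and in 23.1% of 27025 windows of the same length. TTGCNNAA was found in 2 of 8, Clec4e and Clec12a, and in 9.55% of all windows. The windows in these counts were not screened for exons. Annotated exons cover all 250 bases of the Clec12a window, which holds matches to both cores. They cover 130 bases of the Clec4b2 window, 68 of Clec4a2 and 16 of Clec5a. The 2 motifs do not overlap in the sequences shown, and a match is a description of the sequence, not of binding.

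In the wild-type mice, the receptors were read mainly in marrow and were below 3 FPKM in MEP, with the exception of Clec4d. A total of 7 of 9 members were called higher in control marrow than in control MEP and none lower (limma, adjusted p below 0.05), where 12.3% of the 11462 tested genes were called higher and 2.63% lower. All members but Clec12a and Clec4d were below 1 FPKM in every control MEP library and passed the filter through other groups. A call of lower was all but impossible for them, so its absence is no result, and the filter also favours higher calls. The median log2 difference of the 9 members was 3.95 against -0.03 over all tested genes. With the members listed at 0 in control MEP set at the level of 3 reads, the median was 3.91. Levels in control marrow ran from a mean of 6.26 FPKM for Clec4n to 369 FPKM for Clec12a, which ranked 146 of 24107 genes. Clec4b2 (log2 difference 3.61 ± 1.14 SE, adjusted p = 0.0527) and Clec4d (0.90 ± 0.37, adjusted p = 0.134) did not pass. When leukemic MEP 3 was left out, 8 members passed, Clec4b2 included.

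**Figure D1:**
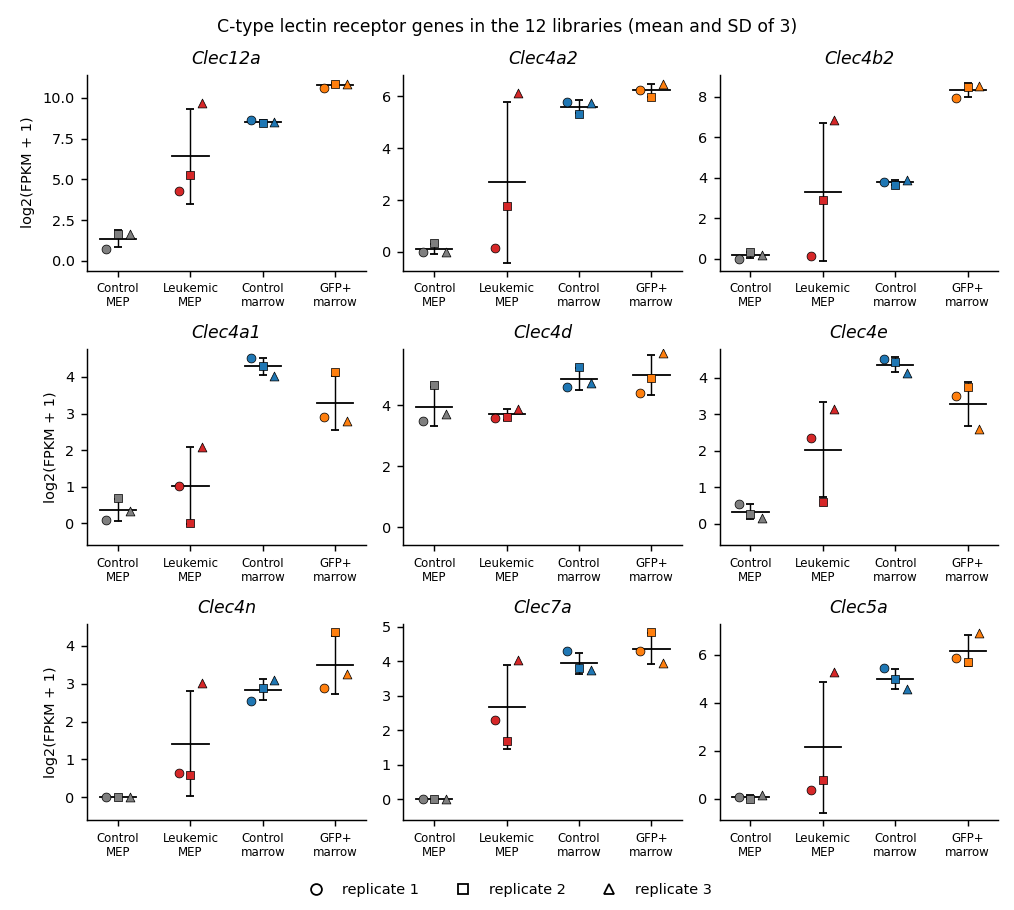
Levels of the 9 receptor genes as log2(FPKM + 1) on the vertical axis, by group on the horizontal axis; points are libraries, shaped by replicate number, with the mean and SD of 3. Control MEP lies below 2 for every gene but Clec4d, and leukemic MEP 3 (triangle) is the highest of its group for all 9 genes.

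In leukemic MEP, 3 of 9 receptors rose: Clec12a, Clec7a and Clec4e. Over all tested genes 13.7% were called higher and 12.3% lower in this comparison, no member was called lower, and the members' median log2 change was 2.07 against 0.02 over all genes. That median was also 2.07 with Clec4n and Clec7a at their bounds. All members but Clec12a and Clec4d were below 1 FPKM in every control MEP library, with little room to fall on this scale. All but Clec12a, Clec4d and Clec7a passed the filter only with the help of marrow libraries. The lack of lower calls and the sign of the median therefore carry little weight. In GFP+ marrow against control marrow, 1 of 9 rose, Clec4b2, and none fell, where 3.02% of genes were called higher and 6.03% lower, and the median was 0.63 against -0.05. At an unadjusted p below 0.05 there were 6 members in the MEP comparison and 2 in the marrow comparison. The share of all tested genes at that level was not counted, so these counts have no background. Limma's voom on recovered reads also called 3 members higher and none lower in MEP, but they were not the same 3: Clec4n (4.28, adjusted p = 0.0127) passed in place of Clec4e (2.98, adjusted p = 0.0647). In marrow voom called Clec4b2 and Clec12a higher and Clec4e lower (-1.39, adjusted p = 0.0497). The share of all genes called with voom was not counted. Without leukemic MEP 3, 2 members rose in MEP (Clec12a and Clec7a) where 15.1% of genes were called higher, and 3 in GFP+ marrow (Clec4b2, Clec12a and Clec5a) where 8.28% were.

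Clec12a, an inhibitory receptor that recognises uric acid crystals, had the highest level of the 9 in each group but control MEP. Control MEP libraries were at 0.676, 2.18 and 2.07 FPKM and leukemic MEP libraries at 18.1, 37.1 and 831 FPKM. Control marrow was at 403, 342 and 361 FPKM and GFP+ marrow at 1569, 1875 and 1831 FPKM. The groups overlapped in neither comparison, and leukemic MEP 3 lay between the control and the GFP+ marrow libraries. The log2 change was 5.06 ± 0.99 SE in MEP (adjusted p = 0.00287) and 2.25 ± 0.99 in marrow (adjusted p = 0.188). Each SE given with the fit of 12 libraries is pooled over the 4 groups, leukemic MEP 3 included. It is therefore not the spread of the 2 groups compared. Leaving out leukemic MEP 3 made the MEP change 3.41, still called, and the marrow change kept its value of 2.25 with an adjusted p of 0.000183. A fit of the marrow groups alone gave an adjusted p of 8.9e-05 for that change. Mean levels were 4.77-fold higher in GFP+ marrow, where Clec12a ranked 22 of 24107 genes and made up 73.3 to 78.0% of the 9 members' summed FPKM.

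Clec4a2, the dendritic cell immunoreceptor DCIR with an inhibitory motif, was read in 1 control MEP library only. It was at 0, 0.257 and 0 FPKM in control MEP and at 0.103, 2.39 and 69.8 FPKM in leukemic MEP. In control marrow the values were 53.6, 38.6 and 52.5 FPKM and in GFP+ marrow 74.6, 62.0 and 89.4 FPKM. The MEP groups overlapped through leukemic MEP 1, while every GFP+ marrow library was above every control marrow library. Neither change passed: 2.57 ± 1.05 in MEP (adjusted p = 0.0927) and 0.63 ± 1.05 in marrow (adjusted p = 0.768). Leaving out leukemic MEP 1 brought the MEP change to 3.84 (adjusted p = 0.00992), and leaving out leukemic MEP 3 to 0.84 (adjusted p = 0.136). The longest annotated Clec4a2 transcript shares 8.31% of its 50-base stretches with another gene's transcripts, most of them with Clec4a4, so its reads are uncertain to that extent.

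The members Clec4d, Clec4e and Clec4n signal through FcRγ and encode MCL, Mincle and Dectin-2. Clec4d and Clec4e sense mycobacterial cord factor and Clec4n senses fungal mannans. Clec4d was the only member with more than 3 FPKM in control MEP, at 10.1, 24.5 and 12.1 FPKM, and leukemic MEP was at 11.1, 11.2 and 13.8 FPKM. Control marrow was at 23.1, 37.2 and 25.4 FPKM and GFP+ marrow at 20.2, 28.4 and 51.6 FPKM. Control and leukemic libraries overlapped in both populations, with changes of -0.26 ± 0.37 in MEP (adjusted p = 0.646) and 0.14 ± 0.37 in marrow (adjusted p = 0.861). These estimates do not hold their sign, reaching 0.10 in MEP without control MEP 2 and -0.21 in marrow without GFP+ marrow 3.

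Clec4e had estimates of opposite sign in the 2 populations. It was at 0.456, 0.208 and 0.108 FPKM in control MEP and at 4.09, 0.519 and 7.75 FPKM in leukemic MEP, with no overlap. In control marrow it was at 21.9, 20.5 and 16.6 FPKM and in GFP+ marrow at 10.3, 12.5 and 5.05 FPKM, again with no overlap and with the leukemic libraries lower. Clec4e was the only member whose GFP+ marrow libraries all lay below the control marrow libraries. The rise in MEP was 1.71 ± 0.53 (adjusted p = 0.0322), and the marrow estimate of -1.07 ± 0.53 did not pass (adjusted p = 0.243). The MEP call was lost without leukemic MEP 3 (1.16, adjusted p = 0.0882), without leukemic MEP 1 (1.55, adjusted p = 0.0863), and without control MEP 1, 2 or 3 (1.62 to 1.82, adjusted p from 0.0610 to 0.0961).

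Clec4n was listed at 0 in every control MEP library and at 0.566, 0.514 and 7.03 FPKM in leukemic MEP, values that rest on 9, 6 and 6 reads. Its mean in leukemic MEP was at least 30.8-fold higher than the level that 3 reads over the control MEP group give, and at least 6.15-fold higher without leukemic MEP 3. In control marrow the values were 4.88, 6.35 and 7.56 FPKM and in GFP+ marrow 6.32, 19.5 and 8.51 FPKM, which overlapped. Neither change passed, at 1.42 ± 0.57 in MEP (adjusted p = 0.0894) and 0.65 ± 0.57 in marrow (adjusted p = 0.534). For genes at 0 in a group, a fitted change depends on the added value of 1 FPKM and is no bound. The MEP change was 0.62 (adjusted p = 0.261) without leukemic MEP 3 and 1.83 (adjusted p = 0.0442) without leukemic MEP 2.

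Clec7a encodes Dectin-1, the β-glucan receptor, which signals to Syk from a motif in its own tail. Like Clec4n it was listed at 0 in the 3 control MEP libraries, and leukemic MEP was at 3.90, 2.25 and 15.4 FPKM, from 99, 42 and 21 reads. All 3 leukemic libraries were therefore above all 3 controls, and their mean was at least 131-fold above the level of 3 reads over the control group, or at least 55.9-fold without leukemic MEP 3. The log2 change of 2.68 ± 0.49 (adjusted p = 0.00187) was 1.998 without leukemic MEP 3, still called. In marrow the groups overlapped, at 18.6, 13.03 and 12.4 FPKM in controls and 18.7, 27.6 and 14.4 FPKM in GFP+ cells, with a change of 0.41 ± 0.49 (adjusted p = 0.661).

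Clec5a (MDL-1) signals through DAP12 and its relative DAP10 and is known as a receptor for dengue virus. Control MEP was at 0.0562, 0 and 0.110 FPKM and leukemic MEP at 0.306, 0.705 and 38.1 FPKM, with no overlap but with nearly all of the mean from leukemic MEP 3. Control marrow was at 42.0, 30.8 and 22.9 FPKM and GFP+ marrow at 57.1, 51.2 and 118 FPKM, all above the controls. The changes were 2.07 ± 0.96 in MEP (adjusted p = 0.132) and 1.15 ± 0.96 in marrow (adjusted p = 0.503). With leukemic MEP 3 left out, the marrow change of 1.15 had an adjusted p of 0.0270 and the MEP change fell to 0.50 (adjusted p = 0.347). Without leukemic MEP 1 the MEP change was 2.95 (adjusted p = 0.0422).

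Clec4a1 and Clec4b2 are less studied members of the DCIR and DCAR groups, and their estimates had opposite signs in GFP+ marrow. Clec4b2 was at 0, 0.258 and 0.134 FPKM in control MEP and at 0.0860, 6.33 and 115 FPKM in leukemic MEP, so that leukemic MEP 1, with 1 read, lay within the controls. In control marrow the values were 12.96, 11.5 and 13.7 FPKM and in GFP+ marrow 248, 358 and 373 FPKM, a 25.7-fold higher mean. That rise of 4.56 ± 1.14 (adjusted p = 0.0269) was the only member call in marrow. Its size ranged from 4.45 to 4.74 when any of the 6 marrow libraries was left out, and each of those 6 fits took the call away (adjusted p from 0.0562 to 0.0966), while the fit without leukemic MEP 3 kept it. In MEP the change was 3.11 ± 1.14 (adjusted p = 0.0633), and it was 1.33 without leukemic MEP 3 (adjusted p = 0.105) and 4.70 without leukemic MEP 1 (adjusted p = 0.00213).

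Clec4a1 was low in both MEP groups, at 0.0689, 0.604 and 0.269 FPKM in controls and 1.04, 0 and 3.22 FPKM in leukemic libraries, which overlapped. Control marrow was at 22.0, 18.6 and 15.4 FPKM and GFP+ marrow at 6.48, 16.6 and 5.98 FPKM. The highest GFP+ library, replicate 2, had 1149788 reads and was the only one within the control range. Neither change passed, at 0.66 ± 0.49 in MEP (adjusted p = 0.347) and -1.001 ± 0.49 in marrow (adjusted p = 0.243). The MEP estimate was 0.14 (adjusted p = 0.859) without leukemic MEP 3. Without both shallow libraries, leukemic MEP 3 and GFP+ marrow 2, the marrow change was -1.43 with an adjusted p of 0.0153.

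**Figure D2:**
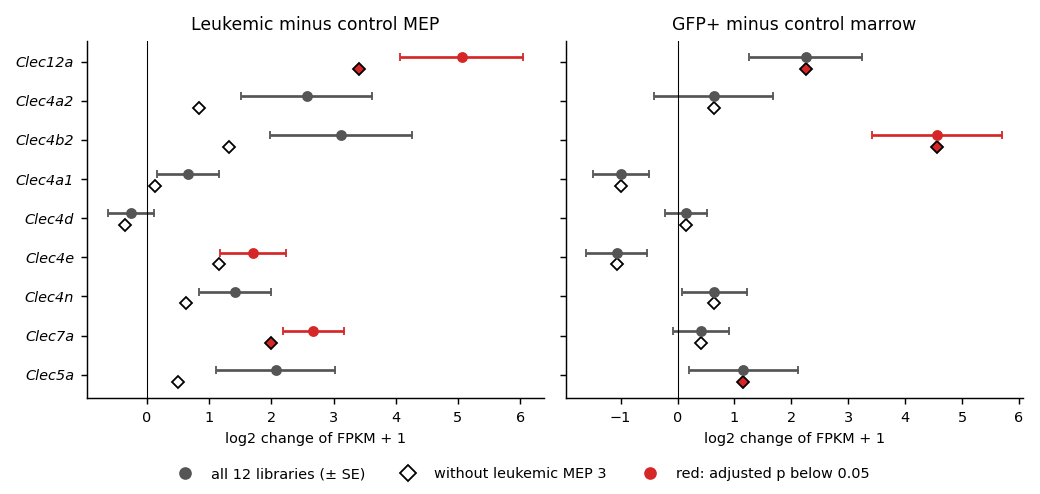
Log2 change of FPKM + 1 on the horizontal axis for each receptor, in MEP (left) and marrow (right); circles are the fit of all 12 libraries with its SE, diamonds the fit without leukemic MEP 3, and red marks an adjusted p below 0.05. Clec12a and Clec7a are red in both fits of MEP, and Clec4b2 in both fits of marrow.

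No member was called for a difference between its change in MEP and its change in marrow in the fit of all libraries (limma interaction), where 4.52% of genes were called higher and 0.366% lower. At the unadjusted level 3 members had a p below 0.05, and voom on recovered reads called 2 higher. The share of all genes was counted for neither. Clec4e was nearest to the threshold with a difference of 2.78 ± 0.75 (adjusted p = 0.0550). Without leukemic MEP 3, the difference passed for Clec4e (2.23, adjusted p = 0.0431), Clec7a (1.58, adjusted p = 0.0357) and, in the opposite direction, Clec4b2 (-3.23, adjusted p = 0.0179).

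Leukemic MEP and GFP+ marrow were also compared directly. Of the 9 members, 4 were higher in GFP+ marrow (Clec12a, Clec4a1, Clec4b2 and Clec5a) and 0 lower, where 2.08% of genes were called higher and 0.977% lower, and the members' median difference was 2.25 against -0.00 over all tested genes. Without leukemic MEP 3 all 9 were higher, where 9.99% of genes were. The 4 calls with all libraries were fragile: leaving out any other library than leukemic MEP 3 left none of them, except that Clec4a1 was kept without GFP+ marrow 3.

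The distance between leukemic MEP 3 and its group differed from gene to gene. As a percentage of the GFP+ marrow mean, Clec12a stood at 1.03 and 2.11% in leukemic MEP 1 and 2 and at 47.3% in leukemic MEP 3. For Clec4a2 these values were 0.137, 3.17 and 92.6%, and for Clec4b2 0.0263, 1.94 and 35.4%. Clec4d was nearly even across the 3 libraries, at 33.2, 33.5 and 41.3%. Clec7a lay between, at 19.3, 11.1 and 76.2%. The summed levels of all 9 genes came to 1.70, 2.63 and 47.5% of GFP+ marrow, and those of 10 mature neutrophil markers to 0.592, 2.02 and 85.7%. Primary granule markers came to 1.91, 2.71 and 76.5%, and eosinophil markers to 0.235, 1.20 and 65.8%. Other lists ran the other way, such as megakaryocyte and platelet markers at 1278, 1051 and 81.6%.

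**Figure D3:**
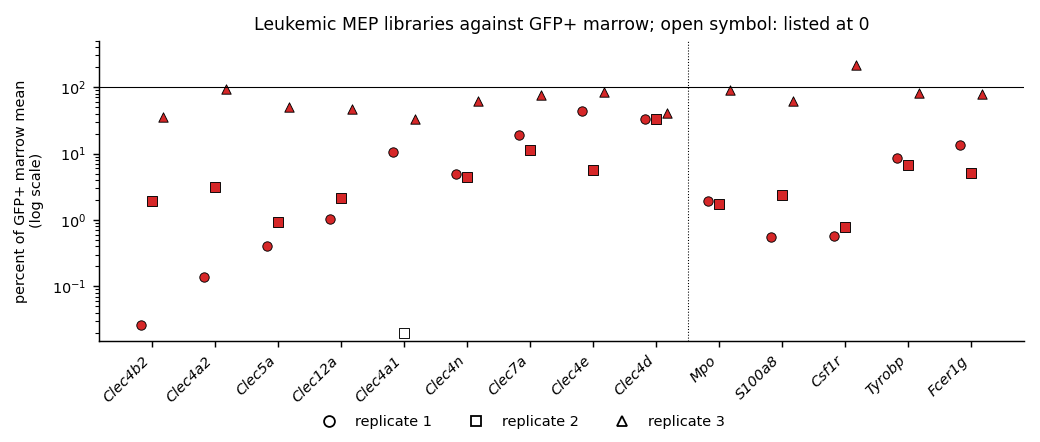
Level in each leukemic MEP library as a percentage of the GFP+ marrow mean, on a log axis, for the 9 receptors and, right of the dotted line, 5 reference genes; the horizontal line is 100% and the open symbol a gene listed at 0. Replicate 3 is the highest library for all 9 receptors and for the reference genes.

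Markers of other cell types moved with these comparisons. Counts of this and later lists stand against 13.7% of all tested genes called higher and 12.3% lower in leukemic MEP. In GFP+ marrow these shares were 3.02% and 6.03%. Without leukemic MEP 3 they were 15.1% and 12.3% in MEP and 8.28% and 10.5% in marrow. In leukemic against control MEP, 7 of 8 primary granule markers, 4 of 10 mature neutrophil markers and 3 of 9 tested monocyte markers rose, and none fell. Summed mature neutrophil markers were at 17.3 to 293 FPKM in control MEP and at 500, 1708 and 72374 FPKM in leukemic MEP, and summed monocyte markers at 1.55 to 5.48 FPKM and at 33.1 to 1587 FPKM. The neutrophil list had 5 markers below 1 FPKM in all control MEP libraries, among them Ly6g and Mmp9, and none in all leukemic MEP libraries. Ly6g and Mmp9 stayed below 1 FPKM in leukemic MEP 1 and 2. As percentages of the GFP+ marrow mean, Ly6g stood at 0.532, 0.145 and 173% in leukemic MEP 1, 2 and 3. Mmp9 stood at 0.767, 0.193 and 230%, Mmp8 at 0.342, 2.68 and 101% and Retnlg at 3.34, 2.12 and 59.2%. Cxcr2, also below 1 FPKM in control MEP, went the other way, at 171, 177 and 95.8%. Of 10 megakaryocyte and platelet markers 9 rose, and 6 of 10 erythroid markers fell and 1 rose. The erythroid markers that fell were 4 without leukemic MEP 3. Of 8 basophil and mast cell markers 6 rose, with sums of 6.09 to 9.29 FPKM in control MEP and of 602, 939 and 336 FPKM in leukemic MEP, the highest in leukemic MEP 1 and 2. The part of these markers in the rise of Clec12a, Clec7a and Clec4e was not tested. Summed primary granule markers were at 12.4 to 114 FPKM in control MEP and at 587, 834 and 23506 FPKM in leukemic MEP. These sums were above every control in all 3 leukemic libraries. The same held for the sums of mature neutrophil, monocyte, megakaryocyte and platelet, basophil and mast cell, B cell, and T and NK cell markers.

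In GFP+ against control marrow, 9 of 10 macrophage markers fell and none rose, from a sum of 1044 to 1107 FPKM in control marrow to 35.4 to 58.6 FPKM, with Mertk at 0 in all 3 GFP+ libraries and Cd5l below 1 FPKM. All 10 erythroid markers, 4 of 7 tested dendritic cell markers, 6 of 7 tested B cell markers and 3 of 7 tested T and NK cell markers also fell. Of 7 tested eosinophil markers 2 rose and 1 fell, and the sum of the list went from 237 to 428 FPKM in control marrow to 1716 to 3055 FPKM in GFP+ marrow. Prg2 alone had a mean of 1703 FPKM in GFP+ marrow, while Ear1, Ear2 and Ear6 were below 1 FPKM in all 3 libraries there. In control marrow only Il5ra of the list was below 1 FPKM in all 3. Of 8 basophil and mast cell markers 1 rose and 3 fell. With leukemic MEP 3 left out, 2 eosinophil markers rose and 4 fell, 3 basophil and mast cell markers rose and 3 fell, and 5 T and NK cell markers fell. No mature neutrophil marker was called in either direction, with sums of 62991 to 78187 FPKM in control and 62420 to 98189 FPKM in GFP+ marrow, and 2 fell without leukemic MEP 3. No monocyte marker was called with all libraries, and 2 rose and 2 fell without that library. No primary granule marker was called with all libraries, although their sum went from 13494 to 16219 FPKM up to 29301 to 32879 FPKM, and 6 of 8 rose without leukemic MEP 3. The part of these cell types in the marrow values of Clec4b2, Clec4e and Clec4a1 was not tested.

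Within the Clec4 cluster, neighbours went separate ways in GFP+ marrow. Clec4b1, which encodes the activating receptor DCAR, was at 11.3, 17.6 and 13.1 FPKM in control marrow and at 0, 1.182 and 0 FPKM in GFP+ marrow, a change of -3.51 ± 0.33 (adjusted p = 4.7e-05). Clec4b2, separated from it by Clec4a2 alone, rose in the same libraries. Clec4a3 followed Clec4a1, at 24.5, 26.0 and 17.5 FPKM in control marrow and 10.6, 27.9 and 5.94 FPKM in GFP+ marrow, which overlapped. Clec4a4 stayed below 1 FPKM in every library. Of the Clec4b1 transcript's 50-base stretches 9.73% are shared with Clec4a2, and none of Clec4b2's are shared with any gene.

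**Figure D4:**
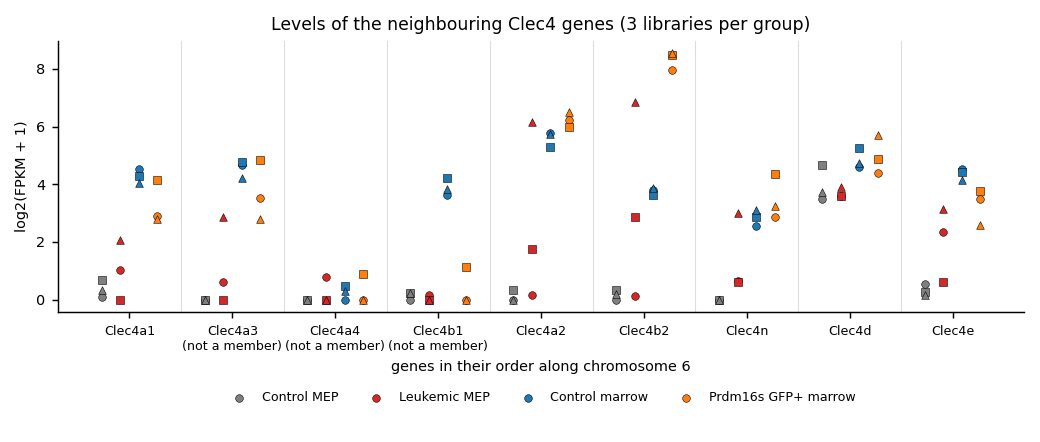
Levels of the 9 neighbouring Clec4 genes as log2(FPKM + 1) on the vertical axis, in chromosome order; colours are groups and shapes replicates. In GFP+ marrow (orange) Clec4b1 is near 0 while Clec4b2, further along, is the highest gene of the row.

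The genes whose levels followed each member most closely over the 12 libraries were taken by Pearson's r of log2(FPKM + 1), as a description. For Clec12a they were Arl6ip1 (r = 0.995), Gstm1 (r = 0.994) and Ctsg (r = 0.993), and for Clec4a2 the granulocyte factor Cebpe (r = 0.996), Mcemp1 and Ifitm6. Clec5a was followed by Sgms2 (r = 0.991), Mgst2 and Tnfrsf26, Clec7a by Emb (r = 0.990), Anxa2 and Bex6, and Clec4b2 by Scnn1a (r = 0.987), Xbp1 and Glrx. Clec4a1 and Clec4e shared Clec4a3 among their closest genes (r = 0.985 and 0.958). Their others were Ctss and Id2 for Clec4a1 and Runx2 (r = 0.982) and Kctd12 for Clec4e. Clec4n was followed by H2-Q10 (r = 0.978), Chst13 and Fpr2, and Clec4d, with the loosest likeness, by Ftl1 (r = 0.888), Asprv1 and Ly96. The points share libraries and group differences. Between members, r ran from 0.551 for Clec4d with Clec4e to 0.986 for Clec4a2 with Clec5a.

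The adaptors and kinases that these receptors use were measured in the same libraries. Of 14 tested genes of this list, 11 rose and none fell in leukemic MEP, with a median change of 1.997 against 0.02 over all genes, and 9 rose without leukemic MEP 3. Tyrobp, for DAP12, was at 2.28, 8.79 and 4.44 FPKM in control MEP and at 163, 127 and 1565 FPKM in leukemic MEP, a change of 5.84 ± 0.73 (adjusted p = 0.000147). Hcst, for DAP10, was at 1.70, 3.35 and 1.58 FPKM and at 50.8, 38.8 and 72.0 FPKM, with a change of 4.09 ± 0.31 (adjusted p = 4.1e-06). The groups did not overlap for either adaptor, and Hcst was even across the 3 leukemic libraries. Fcer1g, for FcRγ, was at 2.77, 11.2 and 5.52 FPKM and at 64.7, 24.9 and 379 FPKM, a change of 3.69 ± 0.73 (adjusted p = 0.00321). It was 2.62 without leukemic MEP 3, still called. Without that library Tyrobp (4.70), Hcst (3.86) and Syk (1.51) were also still called. Syk rose by 1.88 ± 0.33 (adjusted p = 0.00161), from 2.22 to 2.63 FPKM in controls to 11.9, 6.24 and 20.1 FPKM. The adaptor Lcp2 and the phospholipase Plcg2, named by smallest p with Hcst, rose by 3.02 and 3.38.

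In GFP+ marrow none of these 14 rose and 1 fell, the B cell linker Blnk (-2.61 ± 0.42, adjusted p = 0.00238). Over all tested genes 3.02% were called higher and 6.03% lower, so 1 of 14 is near that share. The median change was 0.06 against -0.05. Without leukemic MEP 3, 2 of the 14 rose and 1 fell. Marrow levels of Fcer1g were 548 to 699 FPKM in controls and 398 to 563 FPKM in GFP+ cells, and those of Tyrobp 605 to 876 FPKM and 1597 to 2107 FPKM.

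**Figure D5:**
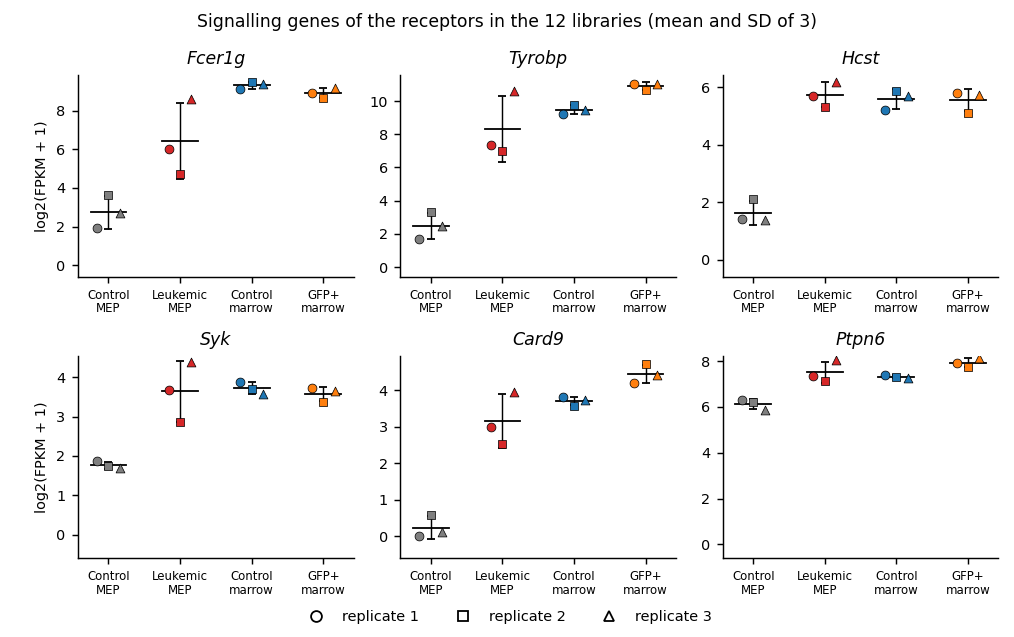
Levels of 6 signalling genes as log2(FPKM + 1) on the vertical axis, by group; points are libraries, shaped by replicate number, with the mean and SD of 3. All 3 leukemic MEP libraries lie above all 3 control MEP libraries for each of the 6 genes.

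Downstream, 4 of 13 tested genes of the CARD9 to NF-kB arm rose in leukemic MEP and none fell: Card9 (2.93 ± 0.35, adjusted p = 9.0e-05), Nfatc1 (1.65), Bcl10 (1.11) and the NF-kB subunit Rel (2.53). Card9, the scaffold that links Syk to NF-kB, was at 0, 0.501 and 0.0867 FPKM in control MEP and at 6.97, 4.78 and 14.5 FPKM in leukemic MEP, a change of 2.53 without leukemic MEP 3, still called. In GFP+ marrow 1 of 13 rose, Bcl10, the partner of Card9, by 0.94 ± 0.20 (adjusted p = 0.0123). The list's medians were 0.59 in MEP and 0.05 in marrow. Of 9 inhibitory phosphatases and their docking proteins, 4 rose in MEP: Ptpn6 by 1.37 ± 0.24 (adjusted p = 0.00139), Dok2 by 3.84, Ubash3b by 1.31 and Dok3 by 2.79. Dok2 was highest in leukemic MEP 1 and 2, at 169.6 and 119.6 FPKM, and at 16.6 FPKM in leukemic MEP 3. Without that library 4 of the 9 rose in MEP and 1 fell. In marrow none of the 9 rose and Inpp5b fell (-1.46 ± 0.39, adjusted p = 0.0350), and 1 rose and 1 fell without leukemic MEP 3.

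Of 10 cytokine genes that these receptors are known to induce, 5 were high enough to test. Il1b rose in leukemic MEP (2.14 ± 0.44, adjusted p = 0.00396), from 0.0573, 0.179 and 0.0373 FPKM to 4.98, 5.71 and 1.79 FPKM, and the change was 2.54 without leukemic MEP 3. In GFP+ marrow Tnf (-2.22 ± 0.44, adjusted p = 0.00837), Ccl3 (-2.78 ± 0.57, adjusted p = 0.00973) and Ccl4 (-3.70 ± 0.82, adjusted p = 0.0147) fell. Tnf was at 5.10, 4.97 and 4.61 FPKM in control marrow and at 1.02, 0 and 0 FPKM in GFP+ marrow. These same genes are made by macrophages, whose markers fell there, and the part of that was not tested.

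Of 19 tested other C-type lectins, 8 rose and none fell in leukemic MEP, led by Clec2i (2.78 ± 0.28, adjusted p = 2.5e-05), Clec1b (4.29 ± 0.55, adjusted p = 0.000161) and the stem cell and myeloid marker Cd93 (3.45 ± 0.49, adjusted p = 0.00039). Clec1b, the platelet receptor CLEC-2 that lies between Clec12a and Clec7a, was listed at 0 in control MEP and at 45.6, 23.0 and 5.72 FPKM in leukemic MEP. It was lowest in leukemic MEP 3, where the 9 myeloid receptors were highest. In GFP+ marrow 1 of the 19 rose, Clec2i (1.88 ± 0.28, adjusted p = 0.00127), and 5 fell: Clec4b1, Cd302, Klrd1, the macrophage mannose receptor Mrc1 and Cd69, by 2.16 to 3.51 on the log2 scale. Without leukemic MEP 3, 10 of the 19 rose in MEP, and 5 rose and 6 fell in GFP+ marrow. A further list held 20 tested genes, mostly other receptors that use the same adaptors or phosphatases, with the Toll-like receptor genes Tlr2 and Tlr4 and their adaptor Myd88. Of these 3 rose in leukemic MEP and none fell, and the count that rose is near the 13.7% of all tested genes called higher. They were Cd300a (3.14 ± 0.26, adjusted p = 8.1e-06), Sirpa (2.11) and Tlr2 (1.70), which signals through Myd88 and not through those adaptors. In GFP+ marrow none rose and 5 fell, with Cd300c2 (-4.15), Treml4 (-3.49) and Siglece (-4.33) having the smallest p, and 2 rose and 9 fell when leukemic MEP 3 was left out. The medians of these 20 were 1.34 in MEP and -0.58 in marrow.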

How the data were processed

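RNA of 12 libraries was measured by Smart-seq2 and Nextera XT sequencing on a HiSeq2500, per the labels' protocols. The authors deposited 1 table of FPKM values. Per the submitters' processing notes, CASAVA, bcl2fastq, STAR 2.5.3a, DESeq2 1.18.1 and the mm10 build were used. Neither an annotation nor a counting tool is named in those notes. Whole reads were recovered from the steps of the FPKM values for all 16728 detected genes (tolerance 0.02), which gave the depth per library, and 7379 genes were at 0 throughout.

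Log2(FPKM + 1) of the 11462 genes with at least 1 FPKM in at least 3 libraries was fitted with limma 3.58.1 (trend, R 4.3.3), 4 groups in 1 fit with 8 residual degrees of freedom. Genes were called at a Benjamini-Hochberg adjusted p below 0.05 over all tested genes. FPKM changes on this scale understate those of low genes. The script was tested on simulated data. Alternatives were other pseudocounts, filters, scalings, array weights, voom on recovered reads, a replicate block, the compared groups alone, and left-out libraries. All 9 members were named, with the 3 called genes of smallest p in each related list, those called against the list's majority, and the 3 genes most alike each member with at least 5 FPKM in a group. Other genes were named after their values were seen. The members and lists were chosen with earlier results of these data known. Promoter windows came from RefSeq (GRCm38.p6) and exons from GENCODE. Python 3.11.15, pandas 2.3.3, numpy 2.4.6 and matplotlib 3.10.9 were used.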

Additional observations from a re-analysis of the deposited data

How the results depend on the processing

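Over 24 alternatives, the members called higher were 3 in leukemic MEP, 1 in GFP+ marrow, 7 in control marrow against control MEP, 4 in GFP+ marrow against leukemic MEP and 0 for the difference of changes, all in the fit of 12 libraries, and those counts moved as follows in that order. A pseudocount of 0.1 gave 6, 0, 8, 0 and 1, 0.5 gave 4, 1, 8, 3 and 1, and 5 gave 2, 1, 7, 4 and 0. No filter gave 2, 0, 7, 0 and 0, and a filter at 5 FPKM 3, 1, 8, 4 and 0. Equal totals gave 3, 1, 8, 4 and 2, quantile normalization 2, 1, 7, 1 and 0, array weights 4, 2, 9, 9 and 3, and voom on recovered reads 3, 2, 8, 8 and 2. The compared groups alone gave 2, 2, 8 and 0, and leaving out both libraries of lowest depth 2, 3, 8, 7 and 2. In the fit of the MEP groups alone only Clec12a, Clec4d and Clec7a passed the filter, so Clec4e was not tested there. Members called lower were 0 in the MEP comparison under every setting, where most members had little room to fall. In marrow 1 was lower with array weights, with voom and without both shallow libraries, and for the difference of changes 1 was lower with array weights and without both shallow libraries. Shares of all genes called were counted only for the main fit and the fit without leukemic MEP 3. Member counts under the other settings therefore cannot be set against a background.

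Leaving out 1 library at a time gave 2 to 5, 0 to 3, 7 to 8, 0 to 9 and 0 to 2 members higher, and 0 to 1 lower for the difference of changes. The extremes of 9 and of 3 in marrow came without leukemic MEP 3, the 5 without leukemic MEP 1, and the 2 for the difference also without leukemic MEP 2. Where a group was left with 2 libraries its spread was pooled with the others.

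Signs turned for estimates that did not pass. Clec4d in marrow was -0.087 with equal totals and -0.32 with array weights, and -0.21 to 0.44 when 1 library was left out. In MEP Clec4d ran from -0.50 to 0.10 on leaving out 1 library. The difference of changes turned for Clec4b2 (0.020 at a pseudocount of 0.1, and -3.23 to 0.14 leaving out 1 library), Clec4a2 (-0.22, array weights), Clec4d (0.070, array weights), Clec5a (-0.55 with array weights, -0.88 without both shallow libraries, -0.65 to 1.80 leaving out 1) and Clec4n (-0.026 to 1.20 leaving out 1). Of 1065 recomputed member values, 907 kept direction and side of the threshold. The cause of these changes was not tested.

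With a replicate block, 3, 1, 8, 3 and 0 members were higher. The deviations of same-numbered libraries from their group means correlated at -0.157 to -0.0521 in MEP and -0.0619 to 0.0204 in marrow. They correlated at 0.0734 to 0.497 between the control groups and 0.0862 to 0.215 between the leukemic groups, positive for every pair. Xist was also high in replicates 1 and 2 and low in replicate 3 of both leukemic groups. MEP and marrow libraries of the same number may therefore share a mouse, which the labels do not state. In no comparison did every pair exceed 0.1, the cut-off set, so the main fit took no pairs. This limits its p-values for marrow against MEP and for the difference of changes. Depth limits the low genes: 1 read per kilobase was worth 1.67 FPKM in leukemic MEP 3, where Clec4d rested on 11 reads and Clec4a1 on 3.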
